A study of Schizocosa ocreata with 10 samples.

Results

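The genes described here are the heat shock proteins and chaperones of the wolf spider Schizocosa ocreata, a ground-hunting spider, measured as messenger RNA in the brain. A gene was included when its annotation listed 1 of 4 protein family domains from Pfam, namely HSP70 (PF00012), HSP90 (PF00183), HSP20 (PF00011) or Cpn60_TCP1 (PF00118). The rule used the annotation and no measured value. It found 37 of the 25922 genes with counts, of which 10 held an HSP70, 3 an HSP90, 10 an HSP20 and 14 a Cpn60_TCP1 domain. All 37 passed the filter on low counts.

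Chaperones are proteins that help other proteins to reach and keep their folded shape. Those of the HSP70 family bind short exposed stretches of unfolded chains in cycles driven by ATP, with DnaJ proteins as partners that deliver the chains. HSP90 proteins act on clients that are nearly folded, among them the receptors of steroid hormones. The chaperonins of the Cpn60_TCP1 family are double rings that enclose a chain while it folds. Small heat shock proteins, which carry the HSP20 domain, hold unfolding proteins and prevent clumping without the use of ATP. Many chaperones are made at all times, as cognates, while others are switched on by heat and other stress. Each compartment of the cell has its own set, and those of the endoplasmic reticulum are raised when unfolded proteins collect there.

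Each library came from the brain of 1 wild-caught spider. Spiders were immature (subadult) or mature (adult), and the libraries analysed were 2 of immature females, 3 of immature males, 3 of mature females and 2 of mature males. Brains of mature spiders were taken 24 hours after their final molt, and the time left to the molt was not known for the immature spiders. The labels name no treatment, and the brain samples could hold some tissue of the esophagus that passes through it. Immature female 1 and mature male 1 were excluded by the authors and were not analysed here. In the sentences below, values within a group follow the replicate numbers of the labels, which are 2 and 3 for the immature females, 1, 2 and 3 for the immature males and the mature females, and 2 and 3 for the mature males.

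The deposited values are counts of reads per gene, with totals from 3481348 to 11789754 per library. Levels are given as CPM, the counts scaled to a common library size by the TMM method of edgeR and expressed per 1000000 reads. Where different genes are ranked by a stated value, it is CPM per kb of coding sequence. Genes called low or the most abundant of their kind were so by plain CPM, which also depends on coding length. Sums over genes are likewise of plain CPM. The 27 neuronal marker genes, chosen by best match, and the 14 muscle marker genes, chosen by domain, had reads in every library. The muscle domains were troponin, tropomyosin and myosin tail, not all limited to muscle, and Gene004397 on this list matched zip. Others on it matched the muscle genes Mhc, wupA and Prm, so RNA of both tissues was taken to be present. The muscle list summed to 42026 to 78077 CPM in the immature libraries and 57849 to 94486 CPM in the mature libraries, and the neuronal list to 2241 to 3778 CPM in the immature libraries and 2569 to 5746 CPM in the mature libraries. Among the immature spiders, immature female 2 and immature males 1 and 3 stood apart from the rest in genes matching Hr4, a nuclear receptor that answers the molting hormone in Drosophila. Gene001811, best matched to Hr4, was at 143 and 1.42 CPM in the immature females, 505, 1.34 and 668 CPM in the immature males, 1.93, 4.00 and 2.17 CPM in the mature females and 5.13 and 1.97 CPM in the mature males. Haemocyanin genes, which mark blood cells, summed to 174 to 15599 CPM in the immature libraries and 114 to 2819.8 CPM in the mature libraries. The highest of these sums were those of immature female 3 and, among the mature libraries, of mature male 2. Cuticle protein genes summed to 533 to 8199 CPM in the immature libraries and 1764 to 9408 CPM in the mature libraries. In whole brains, fewer cells of a type and less RNA per cell cannot be told apart.

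The names of the members were checked against their best matches. A Swiss-Prot match was listed for 36 of the 37, and each of the 10 HSP70, the 3 HSP90 and the 10 HSP20 genes matched a protein of the family its domain names. Of the 14 Cpn60_TCP1 genes, 8 matched the subunits CCT1 to CCT8 once each and 1 matched the mitochondrial Hsp60. Another 3 matched the chaperonin-like proteins MKKS and BBS12, which in mammals help to assemble a complex of the cilium. Gene008563 matched fab1, a lipid kinase that carries a chaperonin-like domain and is no chaperone, and Gene017015 had no match. Identity to the best match ran from 24.3% in BBS12 to 88.6% in Hsc70-4. The median coding length was 1928 nt in the HSP70, 2175 nt in the HSP90, 571.5 nt in the HSP20 and 1609.5 nt in the Cpn60_TCP1 genes. The members lie on contigs assembled without a genome, so they have no chromosome position here. The coding sequences of 7 members overlapped another gene on the same contig, mostly on the opposite strand, and how the counting treated strand was not given in the sources used here. One of them is Hsp83, the cytosolic HSP90, at 839 to 2739 CPM, of whose 2175 nt 312 nt overlap a gene on the opposite strand. That gene was at 90.6 to 355.7 CPM, values that are not per kb and cannot be set against those of Hsp83. Both genes were lowest in immature male 2 and highest in immature male 3. Whether they share reads was not tested. The other members with an overlap were Hsc70-4, BiP Gene003128, TRAP1, Hsp60, CCT2 and Gene000680, over 306 nt in CCT2 to 435 nt in BiP Gene003128. The gene overlapping BiP Gene003128 was highest in immature female 2 (35.6 CPM) and lowest in immature male 2 (3.84 CPM), as was this BiP gene. Sharing of reads was not tested there either.

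The members took up 0.456% to 1.10% of the reads of a library, lowest in mature female 1 and highest in immature female 2. Summed over the 37 genes, the level was 9959 and 7191 CPM in the immature females, 8700.2, 5129.5 and 10100.2 CPM in the immature males, 5162, 5879 and 6191 CPM in the mature females and 6505 and 5015 CPM in the mature males. The highest sums were those of immature female 2 and immature males 1 and 3, while immature male 2 was among the lowest libraries. Per kb, the small heat shock protein Gene015740 led with a mean of 1178 CPM per kb over the 10 libraries. It was followed by the small heat shock protein Gene017252 with 904, Hsp83 with 723 and the constitutive HSP70 protein Hsc70-4 with 610.4 CPM per kb. This order of the means did not hold in each library. The SD between libraries was 723.1 CPM per kb for Gene015740 and 454.6 CPM per kb for Gene017252. In mature females 1 and 3 and mature males 2 and 3, the shorter Gene017252 was above Gene015740 even in plain CPM. The gene most like the heat-inducible Hsp70 of insects (Gene000680) had 31.2 CPM per kb.

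**Figure D1:**
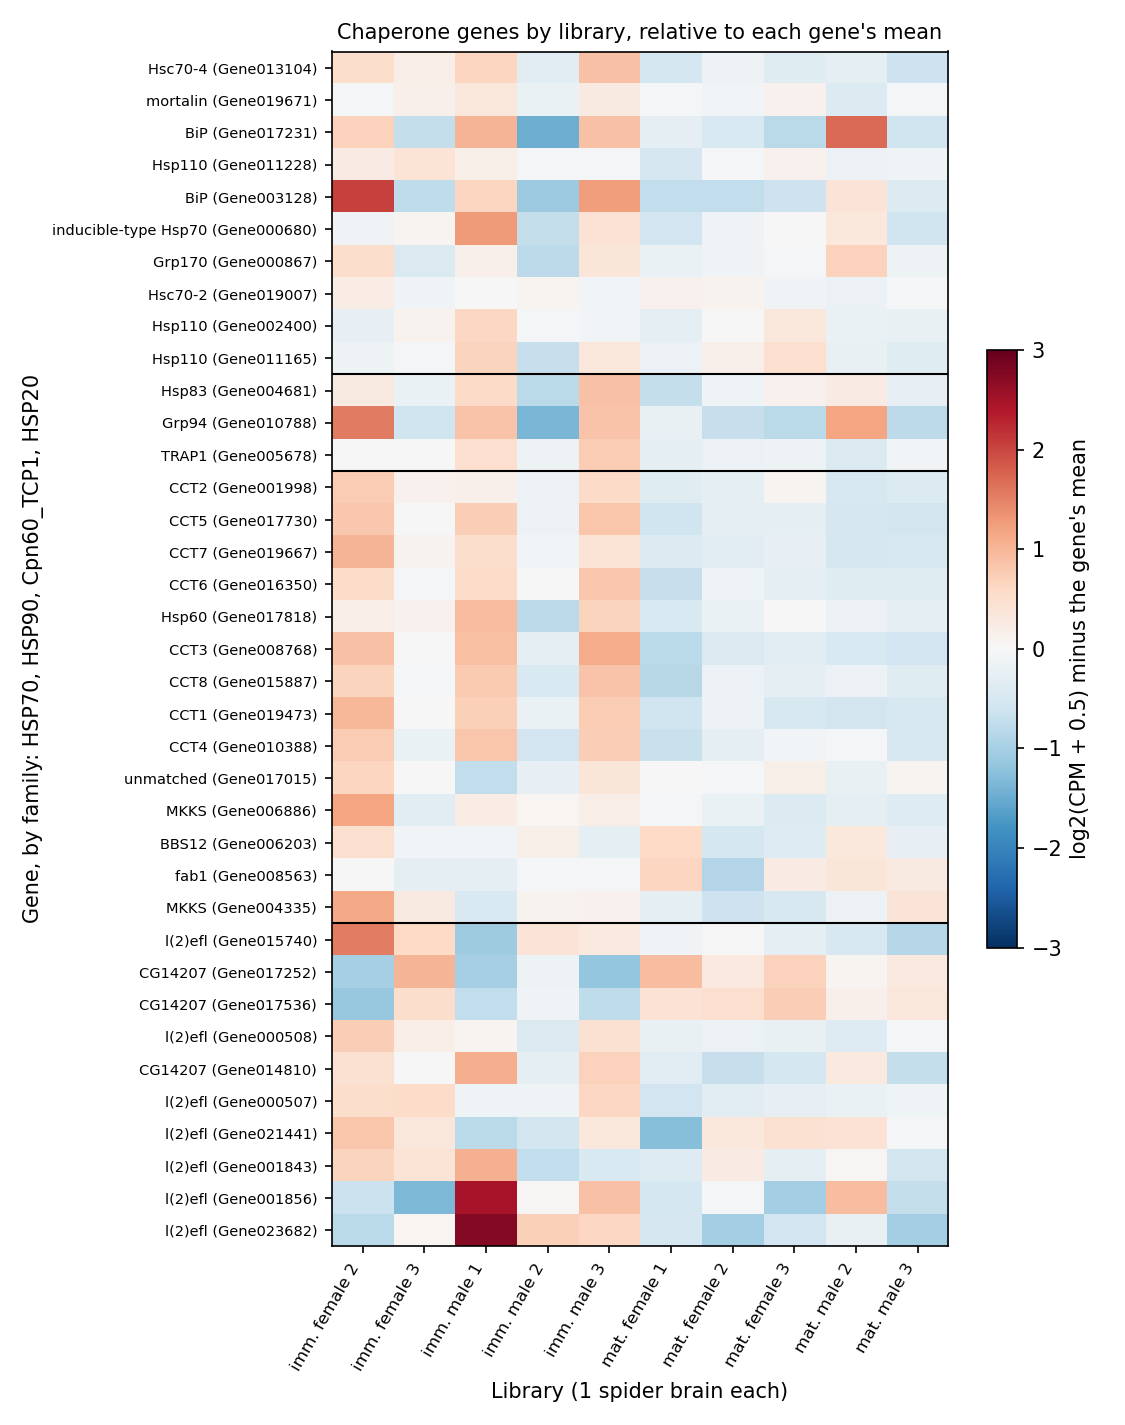
Levels of the 37 chaperone genes (rows, by family) in the 10 libraries (columns), as log2(CPM + 0.5) minus the mean of the gene, so that red is above and blue below the gene's own mean. The 8 CCT subunits are red in immature female 2 and immature males 1 and 3, and the 2 BiP genes and Grp94 are red in mature male 2 as well.

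The cytosolic chaperonin CCT, also called TRiC, folds actin and tubulin among other proteins and is built from 8 different subunits. All 8 were found once, with means between 80.6 (CCT4) and 147 (CCT5) CPM per kb, so that the highest was 1.82 times the lowest. Within single libraries this ratio lay between 1.70 and 2.46. CCT4 was the lowest subunit in 8 of the 10 libraries, and CCT1 was lowest in mature female 3 and mature male 2. CCT1 (Gene019473) was at 278 and 139 CPM in the immature females, 229, 120.5 and 234 CPM in the immature males, 91.1, 124 and 99.6 CPM in the mature females and 95.2 and 98.9 CPM in the mature males. CCT5 (Gene017730) was at 389.8 and 224 CPM in the immature females, 372, 197 and 394 CPM in the immature males, 146, 179.6 and 181 CPM in the mature females and 157 and 152 CPM in the mature males, and each of the 5 mature libraries lay below each of the 5 immature ones. CCT7 (Gene019667), at 399.9 and 214 CPM in the immature females, 284, 187 and 261 CPM in the immature males, 149, 157 and 167 CPM in the mature females and 140.0 and 142 CPM in the mature males, showed the same separation.

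The subunits varied together across libraries. Immature female 2 and immature males 1 and 3 were the 3 highest libraries in all 8 of them, an order that holds for 2188 of the 24930 genes tested (8.78%). This pattern was noticed after the values were seen, and the 8 subunits are measured in the same libraries. CCT3 (Gene008768) reached 274 and 147 CPM in the immature females, 279, 123 and 323 CPM in the immature males, 84.5, 110.4 and 119.9 CPM in the mature females and 109 and 101 CPM in the mature males. CCT6 (Gene016350) reached 248 and 163 CPM in the immature females, 250.0, 172 and 297 CPM in the immature males, 105, 155 and 139 CPM in the mature females and 132 and 133 CPM in the mature males. In both genes the lowest immature library was still above the highest mature library, by a wide margin in the 3 high libraries and a small one in the other immature libraries.

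In the other subunits the 2 stages overlapped. CCT2 (Gene001998), whose coding sequence overlaps another gene, was at 403 and 261 CPM in the immature females, 266, 211 and 352 CPM in the immature males, 184, 197 and 249.8 CPM in the mature females and 169.9 and 179 CPM in the mature males. CCT4 (Gene010388) was at 205 and 106 CPM in the immature females, 217, 80.7 and 203 CPM in the immature males, 75.7, 98.7 and 115 CPM in the mature females and 119 and 86.0 CPM in the mature males, so that immature male 2 fell within the range of the mature libraries. CCT8 (Gene015887) ranged from 107 to 265 CPM in the immature libraries and 82.4 to 129.9 CPM in the mature libraries. Summed over the subunits, the level was 1915 ± 733 CPM (SD, n = 2) in immature females and 1894 ± 608 CPM (SD, n = 3) in immature males. It was 1087 ± 147 CPM (SD, n = 3) in mature females and 1028 ± 34.4 CPM (SD, n = 2) in mature males. The SD was larger in the immature groups, where 1 immature female and 2 immature males stood high.

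**Figure D2:**
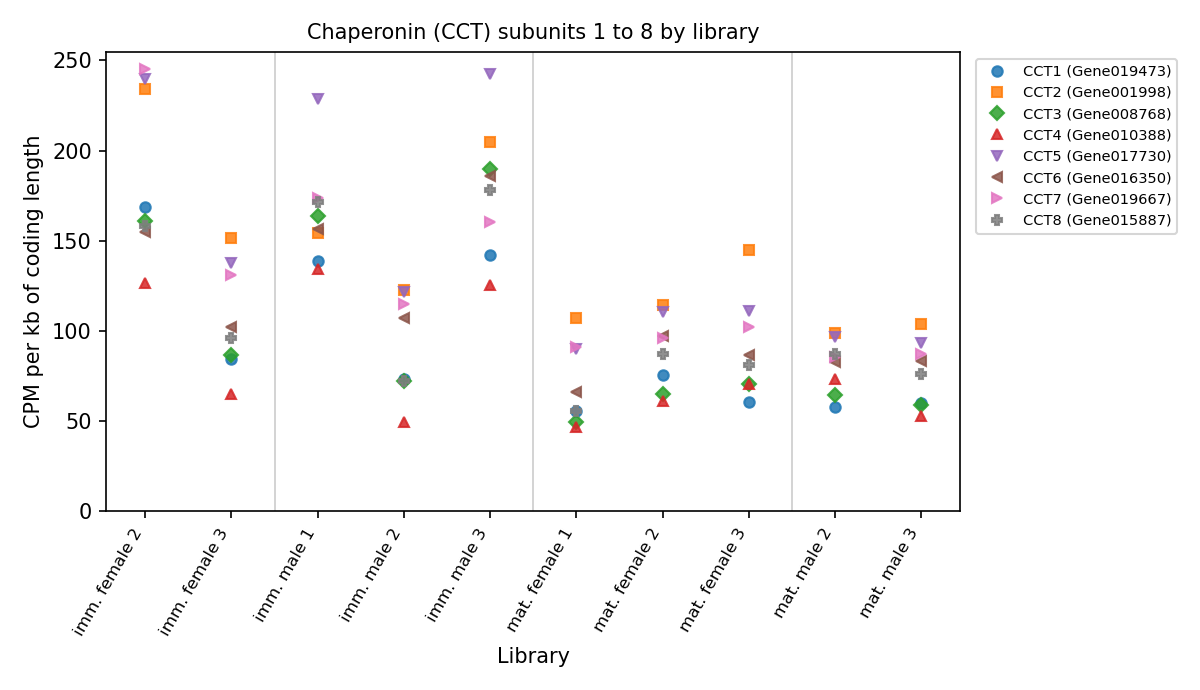
CPM per kb of coding sequence of the 8 CCT subunits (symbols) in each library, with grey lines between the groups of stage and sex. The values of immature female 2 and immature males 1 and 3 lie above those of the other libraries in each subunit, and CCT4 is the lowest subunit in 8 of 10 libraries.

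The cytosolic HSP70 and HSP90 chaperones were the most abundant of their families. Hsc70-4 (Gene013104), the cognate that serves in protein folding and in the uncoating of clathrin vesicles at synapses, was at 1600.3 and 1284 CPM in the immature females, 1734, 891 and 2044 CPM in the immature males, 772, 1002 and 867 CPM in the mature females and 912 and 724 CPM in the mature males. It was highest in the same 3 immature libraries, and immature male 2 lay within the mature range. Hsp83 (Gene004681), which keeps steroid receptors ready to bind hormone, was at 1778 and 1287 CPM in the immature females, 2202, 839 and 2739 CPM in the immature males, 898, 1362 and 1630.3 CPM in the mature females and 1754 and 1238 CPM in the mature males. Its highest values were those of immature males 3 and 1, and the stages overlapped, with mature male 2 close to immature female 2. Hsp110 proteins release nucleotide from HSP70. The main one, Gene011228, was at 196 and 221 CPM in the immature females, 188, 162 and 161 CPM in the immature males, 116, 157 and 179 CPM in the mature females and 145 and 150.3 CPM in the mature males, a narrower range than that of Hsc70-4. The other Hsp110 genes, Gene002400 and Gene011165, were low, between 3.68 and 18.0 CPM over the 10 libraries.

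The other cytosolic HSP70 genes were far below Hsc70-4 per kb. The gene most like the heat-inducible Hsp70 (Gene000680), which in insects is silent until stress, was at 51.0 and 57.8 CPM in the immature females, 134, 33.1 and 74.5 CPM in the immature males, 36.9, 51.0 and 55.2 CPM in the mature females and 68.3 and 36.1 CPM in the mature males. Immature male 1 stood highest, and the remaining libraries overlapped between stages and sexes. Gene019007, a short fragment matching Hsc70-2, varied least of all members, from 11.3 to 15.0 CPM. Its spread between libraries of one group, the pooled SD of log2 CPM, was 0.14, against a median of 0.48 over all genes tested. The median spread was 0.44 for the HSP70, 0.62 for the HSP90, 0.62 for the HSP20 and 0.46 for the Cpn60_TCP1 genes.

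Of the chaperones of the endoplasmic reticulum, both BiP genes and Grp94 had the largest spread among the members. BiP is the HSP70 protein and Grp94 the HSP90 protein of this compartment, and Grp170 exchanges the nucleotide of BiP. The annotation predicted a signal peptide, which sends a protein into this compartment, in 3 of the 37 members, both BiP genes and Grp94. BiP was represented by 2 genes with 84.2% and 84.9% identity to BiP of chicken and mouse, between which reads could have been split. BiP Gene017231 was at 296 and 111 CPM in the immature females, 369.5, 66.0 and 335 CPM in the immature males, 149, 133 and 104 CPM in the mature females and 589.8 and 120.1 CPM in the mature males. BiP Gene003128 was at 353 and 49.9 CPM in the immature females, 133, 39.9 and 205 CPM in the immature males, 50.7, 50.7 and 55.5 CPM in the mature females and 111 and 64.2 CPM in the mature males. Both genes were high in immature female 2, immature males 1 and 3 and mature male 2, but the first was highest in mature male 2 and the second in immature female 2.

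Grp94 (Gene010788) was at 331 and 74.1 CPM in the immature females, 205, 43.4 and 204 CPM in the immature males, 96.7, 69.2 and 64.4 CPM in the mature females and 258 and 65.3 CPM in the mature males. Grp170 (Gene000867), annotated on a partial sequence, was at 46.7 and 24.1 CPM in the immature females, 35.9, 18.5 and 42.1 CPM in the immature males, 28.1, 30.1 and 31.8 CPM in the mature females and 53.0 and 29.2 CPM in the mature males. Here too the same 4 libraries were the 4 highest, and this held in all 4 genes, against 524 of the 24930 genes tested (2.10%), a pattern noticed after the values were seen. It held in 7 of the 37 members, the others being Hsp83, CCT4 and the small heat shock protein Gene014810. The within-group spread was 1.14 for Grp94 and 1.13 and 1.10 for the BiP genes, the 3 largest among the 37 members, above the 0.48 that was the median of all genes. That of Grp170 was 0.52. Summed over the 4 genes, the level was 1027 and 259 CPM in the immature females, 744, 168 and 785 CPM in the immature males, 325, 283 and 256 CPM in the mature females and 1012 and 279 CPM in the mature males, so that mature male 2 was close to immature female 2 and far above mature male 3. Mature male 2 also had the highest haemocyanin sum of the mature libraries, 2819.8 CPM, beside 114 CPM in mature male 3. Its cuticle sum was 8159 CPM, beside 9408 CPM in mature female 2. The highest haemocyanin sum of all, 15599 CPM, was that of immature female 3, where the 4 genes summed to 259 CPM. The part of other tissues in these values was not tested.

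**Figure D3:**
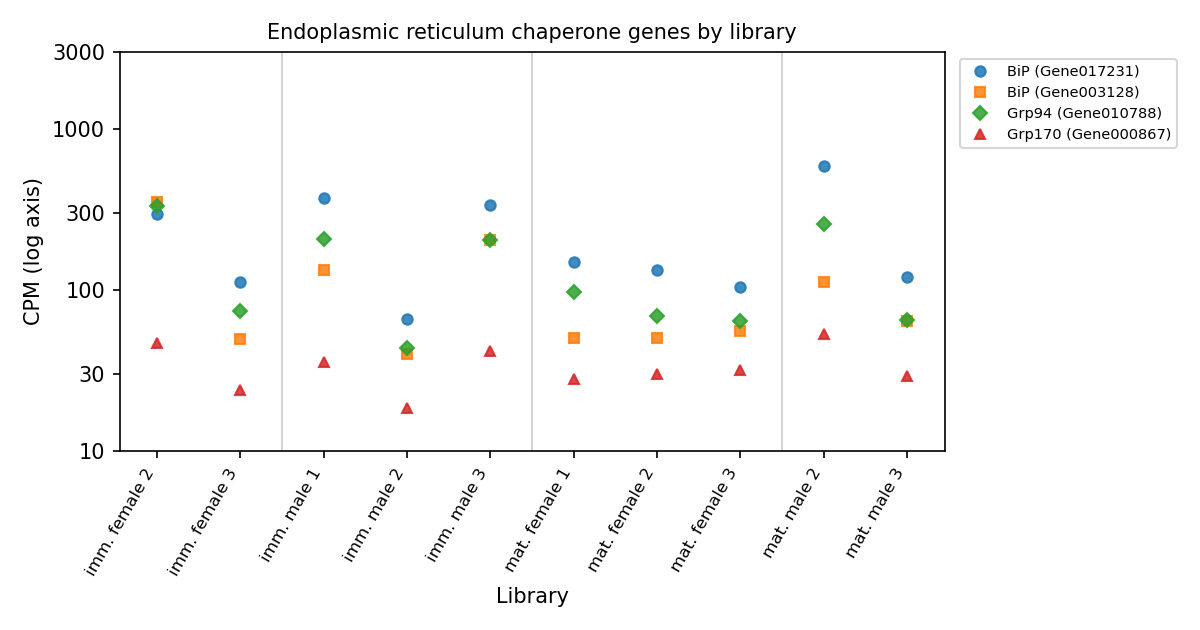
Levels of the 4 endoplasmic reticulum chaperone genes in each library, in CPM on a log axis, with grey lines between the groups of stage and sex. Immature female 2, immature males 1 and 3 and mature male 2 hold the 4 highest values of each gene.

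Mitochondrial chaperones differed from one another in their spread. Mortalin (Gene019671), the mitochondrial HSP70 that pulls imported proteins into the matrix, was at 232 and 267 CPM in the immature females, 306, 209 and 288 CPM in the immature males, 234, 226 and 262 CPM in the mature females and 182 and 229.5 CPM in the mature males. The groups overlapped, and its highest value was 1.68 times its lowest. TRAP1 (Gene005678), the mitochondrial HSP90, was at 115 and 113 CPM in the immature females, 160.2, 102 and 193 CPM in the immature males, 93.4, 101 and 101 CPM in the mature females and 84.6 and 107 CPM in the mature males, with immature males 3 and 1 highest. Hsp60 (Gene017818), the chaperonin of the matrix, was at 187 and 178 CPM in the immature females, 311, 94.7 and 261 CPM in the immature males, 120.0, 142 and 163 CPM in the mature females and 145 and 135 CPM in the mature males. It was highest in immature males 1 and 3 and lowest in immature male 2, so that the immature males alone spanned the whole range of the 10 libraries.

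Small heat shock proteins fell into 2 kinds by their best Drosophila match, with 7 genes like l(2)efl and 3 like CG14207. The protein l(2)efl is a relative of the alpha-crystallins. CG14207 is a small heat shock protein of flies, and the spider genes like it matched HSPB1 of chicken in Swiss-Prot. Gene015740, the most abundant of the first kind, was at 1861 and 967 CPM in the immature females, 306, 835 and 783 CPM in the immature males, 598, 636 and 519.6 CPM in the mature females and 457 and 356 CPM in the mature males. Immature female 2 stood above all other libraries and immature male 1 below them. Gene000507, also of this kind, was at 35.4 and 36.0 CPM in the immature females, 22.5, 22.4 and 38.2 CPM in the immature males, 16.2, 19.7 and 20.6 CPM in the mature females and 21.4 and 22.3 CPM in the mature males, and each mature library lay below each immature one, although mature male 3 and immature male 2 nearly met.

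Of the 3 genes like CG14207, Gene017252 and Gene017536 were lowest in the same 3 libraries, in which Gene014810 was highest. Gene017252 was at 218 and 890.2 CPM in the immature females, 219.6, 397 and 196 CPM in the immature males, 826, 534 and 709 CPM in the mature females and 467 and 534 CPM in the mature males, with its lowest values in immature female 2 and immature males 1 and 3. Gene017536 was lowest in the same libraries, at 31.2 and 98.9 CPM in the immature females, 41.3, 64.3 and 40.2 CPM in the immature males, 93.5, 97.8 and 115 CPM in the mature females and 76.6 and 87.6 CPM in the mature males. Gene014810, by contrast, was highest in them, at 35.2 and 25.7 CPM in the immature females, 55.3, 21.2 and 41.5 CPM in the immature males, 20.4, 15.7 and 17.8 CPM in the mature females and 31.5 and 15.6 CPM in the mature males. Gene017252 and Gene017536 were the 2 members with these 3 libraries lowest, an order seen in 1163 of the 24930 genes tested (4.67%). The muscle list was lowest in immature female 2 but not in immature males 1 and 3, where it summed to 62625 and 59059 CPM, within the range of the other libraries. The part of muscle in these values was not tested.

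The remaining small heat shock protein genes were low. Gene000508 ranged from 20.2 to 46.4, Gene021441 from 3.54 to 17.0 and Gene001843 from 1.17 to 5.33 CPM. Gene001856 was at 0.858 and 0.328 CPM in the immature females, 11.3, 1.67 and 3.39 CPM in the immature males, 0.965, 1.54 and 0.542 CPM in the mature females and 3.54 and 0.787 CPM in the mature males. Gene023682 had 1 and 5 reads in the immature females, 32, 7 and 9 in the immature males, 2, 0 and 2 in the mature females, and 4 and 0 in the mature males. It was the only member with 0 reads in some libraries. In both of these genes immature male 1 was highest, at 57 reads in Gene001856, and counting error is large at such numbers.

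**Figure D4:**
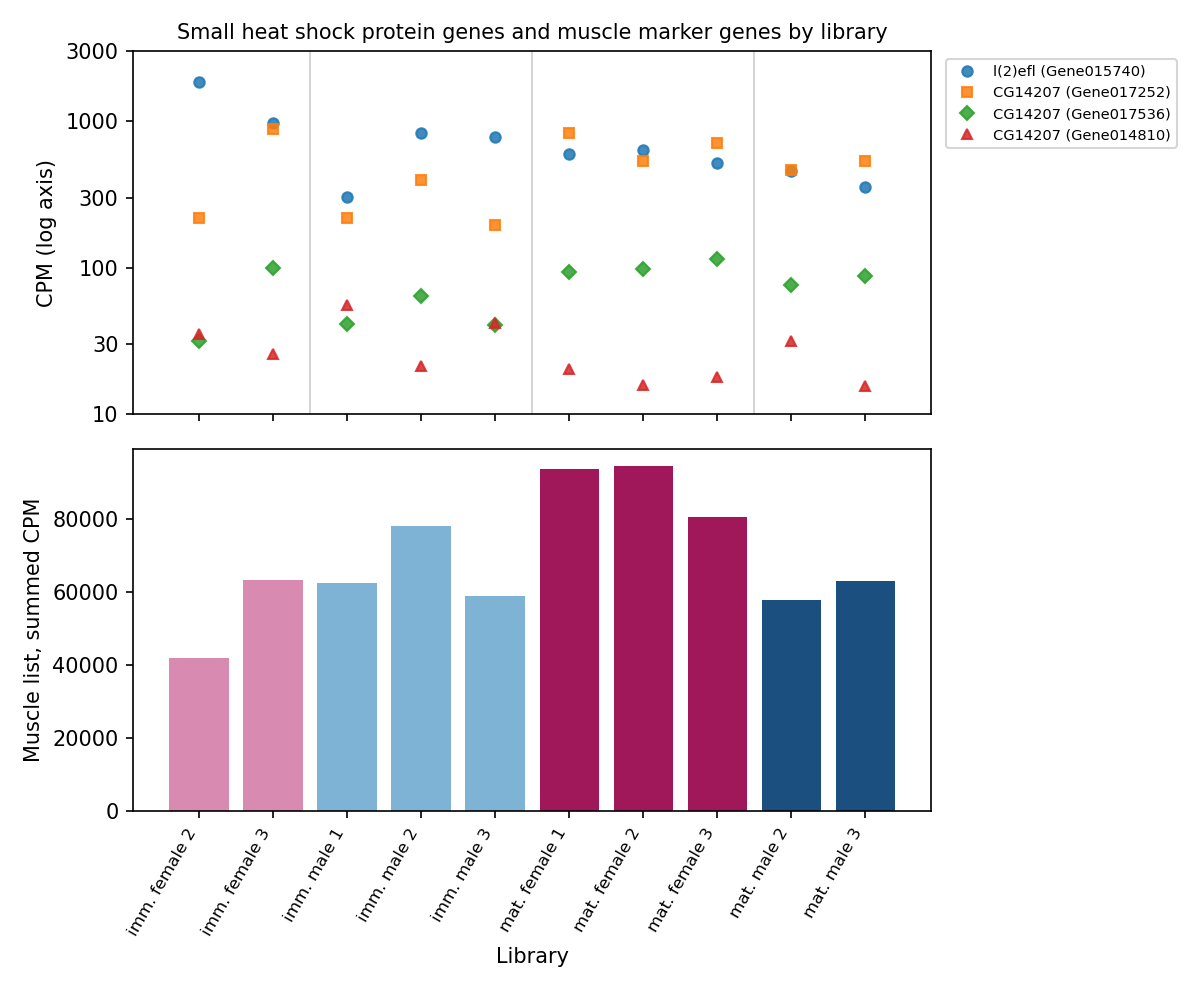
Top, levels of the most abundant l(2)efl gene and the 3 CG14207 genes in each library, in CPM on a log axis. Bottom, the summed CPM of the 14 muscle marker genes as bars from 0, in which immature female 2 is lowest at 42026 CPM and mature female 2 highest at 94486 CPM.

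The chaperonin-like genes were low too. MKKS Gene006886 was at 24.1 and 7.98 CPM in the immature females, 12.0, 10.7 and 11.8 CPM in the immature males, 10.1, 8.92 and 7.58 CPM in the mature females and 8.30 and 7.78 CPM in the mature males, and MKKS Gene004335 at 6.32 and 3.28 CPM in the immature females, 1.78, 2.84 and 2.92 CPM in the immature males, 2.04, 1.54 and 1.72 CPM in the mature females and 2.24 and 3.54 CPM in the mature males. Immature female 2 was highest in both. BBS12 (Gene006203) ranged from 3.07 to 7.29 CPM, fab1 (Gene008563) from 1.54 to 5.36 CPM and the unmatched Gene017015 from 7.31 to 19.7 CPM.

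The first comparison asked how the brains of mature spiders differed from those of immature ones. The fitted level was lower in mature spiders for 33 of the 37 members, with a median log2 fold change of -0.52, beside -0.02 over all genes, but no member passed the test. The subunits of the CCT ring had the lowest median, -0.83, with 8 of 8 on the lower side. The medians of the families were -0.69 for Cpn60_TCP1, -0.57 for HSP20, -0.44 for HSP90 and -0.19 for HSP70. By edgeR's quasi-likelihood test at a Benjamini-Hochberg adjusted p under 0.05, 0 members and 0% of the 24930 genes tested were called over both sexes. An unadjusted p under 0.05 was reached by 15 of the 37 members, beside 15.1% of all genes tested.

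Among the CCT subunits, the fitted log2 fold change by edgeR's quasi-likelihood test ran from -0.66 in CCT2 to -1.10 in CCT3. CCT7 had the lowest adjusted p of all members, with a log2 fold change of -0.88 (SE 0.21, unadjusted p = 0.00256, adjusted p = 0.195). For CCT5 it was -0.96 (SE 0.25, unadjusted p = 0.00362, adjusted p = 0.212), and for CCT1 -0.996 (SE 0.27, unadjusted p = 0.00441, adjusted p = 0.222). DESeq2 called these 3 and CCT3 as lower in mature spiders, with adjusted p of 0.0189 for CCT7, 0.0295 for CCT5, 0.0359 for CCT1 and 0.0368 for CCT3. These were 4 of the 37 members, beside 2.99% of the genes that DESeq2 tested. Over all alternatives of the test or the libraries, the adjusted p reached 0.750 for CCT7, 0.780 for CCT5, 0.814 for CCT1 and 0.808 for CCT3 at most, each with the 3 high immature libraries left out. Leaving out the libraries that were highest in these subunits was bound to weaken their differences. The likelihood ratio test of edgeR called 0 members and 2.59% of all genes.

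Of the other families, Hsc70-4 had the lowest p among the HSP70 genes, at -0.82 (SE 0.25, unadjusted p = 0.00902, adjusted p = 0.238) by edgeR's quasi-likelihood test. TRAP1 had the lowest among the HSP90 genes, at -0.44 (SE 0.20, unadjusted p = 0.0558, adjusted p = 0.337), whereas Hsp83 stood at -0.30 (SE 0.34, unadjusted p = 0.39, adjusted p = 0.674). In the HSP20 family it was Gene015740, at -0.97 (SE 0.31, unadjusted p = 0.0126, adjusted p = 0.253). In BiP Gene003128 the value was -1.23 (SE 0.56, unadjusted p = 0.0553, adjusted p = 0.336) and in Grp94 -0.65 (SE 0.57, unadjusted p = 0.285, adjusted p = 0.589). Without immature female 2 the log2 fold change was -0.19 in BiP Gene003128 and 0.11 in Grp94. That of Hsp83 was -0.14 without immature male 3 and 0.43 without immature female 2 and immature males 1 and 3. The 4 members with a fitted level higher in mature spiders were Grp170, fab1 and the CG14207 genes Gene017252, at 0.60 (SE 0.38, unadjusted p = 0.148, adjusted p = 0.455), and Gene017536, at 0.70 (SE 0.31, unadjusted p = 0.0481, adjusted p = 0.328). With each library left out in turn these ranged from 0.28 to 1.28 and from 0.42 to 1.23, highest without immature female 3, and Gene017252 was at -0.0043 without immature female 2 and immature males 1 and 3.

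Each mature library lay below each immature library in 5 of the 37 members, CCT3, CCT5, CCT6, CCT7 and Gene000507, beside 1.91% of the genes tested. The opposite separation was found in 0 members, beside 1.5% of the genes. With immature female 2 and immature males 1 and 3 left out together, an alternative added after the data were seen that leaves 1 immature library per sex, assumed to vary like the other groups, the median log2 fold change of the members was -0.08, beside 0.07 over all genes. The median of the CCT subunits was then -0.34 with 7 of 8 lower, and that of the endoplasmic reticulum genes was 0.86 with 4 of 4 higher. The libraries left out were the 3 highest in all 8 CCT subunits and among the 4 highest in all 4 endoplasmic reticulum genes. An upward shift of these medians was therefore built into the choice, and mature male 2 stayed in. Without immature male 2, edgeR's quasi-likelihood test called 3 members, CCT3 (adjusted p = 0.0440), CCT5 (adjusted p = 0.0466) and Hsc70-4 (adjusted p = 0.0475, at most 0.820 over the alternatives), beside 1.17% of all genes.

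**Figure D5:**
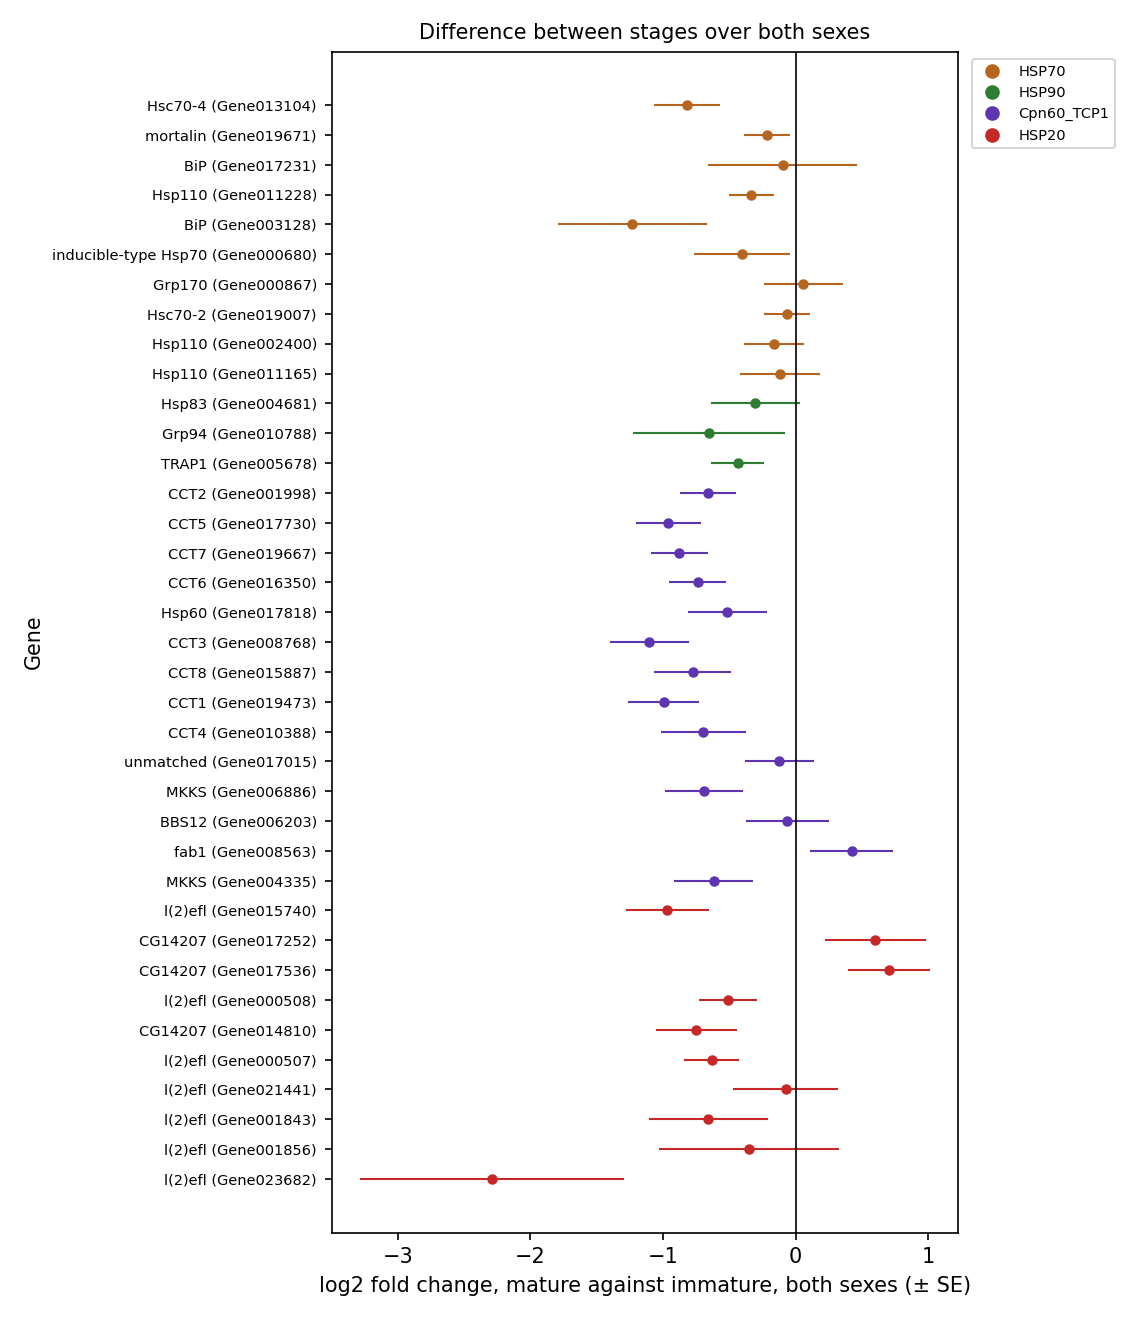
Fitted log2 fold change, mature against immature over both sexes, of the 37 members, with bars of 1 SE either side and colours for the 4 families. The 8 CCT subunits lie between -1.10 and -0.66, and no member passed an adjusted p under 0.05 in edgeR's quasi-likelihood test.

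Within each sex the comparison between stages rested on 2 against 3 libraries, which also enter the comparison over both sexes. Between female stages, 0 members and 0% of the genes tested were called by edgeR's quasi-likelihood test, with 9 of the 37 members at an unadjusted p under 0.05, beside 10.5% of all genes. The median log2 fold change was -0.66 over the members, -0.82 over the CCT subunits and -1.03 over the 4 endoplasmic reticulum genes. Between male stages the same test called 0 members and 0.00802% of the genes, with 8 of the 37 members at an unadjusted p under 0.05, beside 7.44% of all genes. The medians were -0.52 over the members, -0.82 over the CCT subunits and 0.22 over the endoplasmic reticulum genes. DESeq2 called 0 members in either sex, beside 1.52% of the genes in females and 1.03% in males, and the likelihood ratio test 0, beside 1.18% and 0.517%.

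The second comparison asked how males differed from females. By edgeR's quasi-likelihood test 0 members were called in immature brains, beside 0.0321% of the genes tested, and 0 in mature brains and over both stages, beside 0.0401% in each. An unadjusted p under 0.05 was reached by 4 of the 37 members when immature brains were compared, beside 6.01% of all genes, by 0 when mature ones were, beside 2.47%, and by 2 when both stages were combined, beside 4.45%. DESeq2 called 0 members in these 3 comparisons, beside 0.959%, 0.202% and 0.484% of the genes it tested, and the likelihood ratio test 0, beside 0.566%, 0.181% and 0.377%. The fitted level over both stages was higher in males for 18 members and lower for 19, with a median log2 fold change of -0.03. Each male library lay above each female library in 0 members, beside 0.237% of the genes tested, and below in 0, beside 0.357%.

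The lowest p of the members in the comparison of sexes over both stages was that of the scarce Gene001856, with a log2 fold change of 2.16 (SE 0.67, unadjusted p = 0.0106, adjusted p = 0.979) by edgeR's quasi-likelihood test. In Gene015740 it was -0.83 (SE 0.31, unadjusted p = 0.0252, adjusted p = 1), lower in males. The lowest p of the other families was that of BiP Gene017231, at 0.90 (SE 0.57, unadjusted p = 0.146, adjusted p = 1), TRAP1, at 0.19 (SE 0.20, unadjusted p = 0.373, adjusted p = 1), and CCT2, at -0.27 (SE 0.21, unadjusted p = 0.232, adjusted p = 1). Without mature male 2 the value of BiP Gene017231 was 0.13, and with each library left out in turn TRAP1 ranged from 0.08 to 0.29 and CCT2 from -0.41 to -0.11. In mature brains the 4 endoplasmic reticulum genes had a median of 0.91, with mature male 2 above every mature female in 4 of 4. Mature male 3 lay within the range of the mature females in BiP Gene017231, Grp94 and Grp170.

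The interaction of stage and sex asked whether the difference between stages itself differed between males and females. It was called by edgeR's quasi-likelihood test in 0 members and 0% of the genes tested, with 1 of the 37 members at an unadjusted p under 0.05, beside 3.2% of all genes. DESeq2 called 0 members, beside 0.182% of the genes it tested, and the likelihood ratio test 0, beside 0.0562%. For the endoplasmic reticulum genes the median of the fitted interaction was 1.28 on the log2 scale, with 4 of 4 above 0 and an adjusted p of 1 in each. Their sum was 1012 CPM in mature male 2 but 279 CPM in mature male 3, beside 256 to 325 CPM in the mature females. In the immature females it was 1027 and 259 CPM. The 4 genes are measured in the same libraries, so single libraries weigh on all of them together.

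The partners of these chaperones were examined by the same tests. They numbered 51, with 33 DnaJ proteins, 9 proteins with a prefoldin domain and 2 lectin chaperones of the calreticulin domain. There were also 2 heat shock factors and 1 gene each with a GrpE, Cpn10, BAG, CDC37 or Aha1 domain. Over both sexes edgeR's quasi-likelihood test called 0 of the 51 between stages, the likelihood ratio test 0 and DESeq2 1, beside 0%, 2.59% and 2.99% of all genes. An unadjusted p under 0.05 in the first was reached by 10 of the 51, beside 15.1% of all genes. The fitted level was lower in mature spiders for 38, with a median log2 fold change of -0.23. For the DnaJ genes alone the median was -0.06, with 21 of 33 lower. The most abundant of these, the Droj2-like Gene009464, was at 235 to 412 CPM, with a log2 fold change of -0.44 (SE 0.15, unadjusted p = 0.0171, adjusted p = 0.267).

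Prefoldin hands newly made actin and tubulin to CCT. Summed over the 9 genes with a prefoldin domain, the level was 433 and 208 CPM in the immature females, 413, 198 and 505 CPM in the immature males, 211, 194 and 205 CPM in the mature females and 184 and 192 CPM in the mature males. Gene021362 among them matched uri and Gene015104 matched UXT, not a numbered prefoldin subunit. The sum is therefore not that of the actin and tubulin prefoldin alone. The fitted level was lower in mature spiders for 9 of 9, with a median log2 fold change of -0.71, beside -0.02 over all genes. Immature female 2 and immature males 1 and 3 were the 3 highest libraries in 8 of the 9. This order held in 18 of the 51 partners, beside 8.78% of the genes tested, and was noticed after the values were seen. The most abundant, Gene003283, which matches the prefoldin subunit mgr of Drosophila, was at 75.3 and 52.2 CPM in the immature females, 55.1, 42.4 and 77.7 CPM in the immature males, 37.9, 42.4 and 51.9 CPM in the mature females and 36.4 and 39.9 CPM in the mature males. Gene013132, which matches Pfdn4, ranged from 27.1 to 71.7 CPM in the immature libraries and 26.4 to 30.1 CPM in the mature libraries. Another mgr-like gene, Gene004481, was named after its values were seen, at 68.1 and 7.11 CPM in the immature females, 89.1, 9.36 and 107 CPM in the immature males, 22.1, 11.7 and 10.9 CPM in the mature females and 11.5 and 11.6 CPM in the mature males, with the same 3 libraries far above the others.

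Calreticulin (Gene021495), a calcium-binding lectin chaperone of the endoplasmic reticulum, was at 759 and 287 CPM in the immature females, 609.5, 198 and 618 CPM in the immature males, 353, 238 and 248 CPM in the mature females and 595 and 226 CPM in the mature males. It had the same 4 highest libraries as BiP, Grp94 and Grp170. Gene013560, the other gene with this domain, did not. That gene matches Cnx99A and was at 165 CPM in mature female 3 and 158 CPM in mature male 2. These 4 libraries were the highest in 4 of the 51 partners, beside 2.10% of the genes tested. GrpE (Gene019115), the nucleotide exchange factor of mortalin, was at 47.3 and 29.3 CPM in the immature females, 39.1, 32.2 and 62.5 CPM in the immature males, 22.1, 24.9 and 19.7 CPM in the mature females and 20.2 and 24.3 CPM in the mature males. Each mature library lay below each immature one, and the log2 fold change between stages was -0.90 (SE 0.24, unadjusted p = 0.00459, adjusted p = 0.223) by edgeR's quasi-likelihood test, while DESeq2 called it with an adjusted p of 0.0463. Over the alternatives its adjusted p lay between 0.0463 and 0.778. Cpn10 (Gene005278), the lid of Hsp60, ranged from 21.6 to 43.3 CPM in the immature libraries and 20.0 to 27.2 CPM in the mature libraries.

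Of the partners of HSP90, the Aha1 gene (Gene020078), which speeds its ATP cycle, ranged from 24.4 to 53.4 CPM in the immature libraries and 28.0 to 39.4 CPM in the mature libraries. Cdc37 (Gene007353), which brings kinases to it, ranged from 30.4 to 55.1 CPM in the immature libraries and 33.2 to 43.4 CPM in the mature libraries. The BAG gene (Gene002305), which matches starvin, the partner of HSP70 in fly muscle, ranged from 20.2 to 53.7 CPM in the immature libraries and 14.9 to 39.8 CPM in the mature libraries. Hsf (Gene004207), the transcription factor that turns on heat shock genes under stress, ranged from 11.1 to 18.0 CPM in the immature libraries and 12.1 to 24.8 CPM in the mature libraries, and the stages overlapped.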

How the data were processed

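RNA of single brains was sequenced in 10 libraries, grouped by the stage and sex in the labels. The authors trimmed the reads with Trimmomatic 0.32, assembled transcripts without a genome, clustered coding sequences into genes and aligned the reads to them with BWA 0.6.1-r104. They deposited whole-number counts per gene and library, without normalization, and an annotation in which 14278 of 25943 rows stood 1 column to the left and were moved back here. Their comparison results were not used. How mates, strand and reads on several genes were counted is not given in the sources used here.

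The count model was that of edgeR 4.0.16 (with limma 3.58.1), run under R 4.3.3. After filterByExpr with a minimum count of 10, 24930 of 25922 genes were normalized by TMM and fitted with 4 group means, so that groups of 2 shared the spread of all groups. The quasi-likelihood test was the main test, with Benjamini-Hochberg adjustment over all genes and a threshold of 0.05. SE is the absolute log2 fold change divided by the square root of F. Spread is the within-group SD of log2 CPM with a prior count of 2. Alternatives were the likelihood ratio test, DESeq2 1.42.0, RLE size factors, plain library totals, a looser filter (none) and a stricter one (mean CPM of 1 or more), a replicate block, the groups compared alone, members without overlap, and each library left out in turn. The fit of stages over both sexes was tested on simulated data. The changes set there were larger than any fitted for a member in that comparison, so smaller ones were not tested.

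Genes named are the most abundant member of each subfamily, members called, the member of each family with the lowest unadjusted p for stage and for sex, the 3 members with the largest spread, and the most abundant partner of each kind. Abundance here was the mean CPM over the 10 libraries. Others were named after their values were seen. The members and lists were chosen with earlier results of these data known. The paper gives Lancaster County, Nebraska, as the place of collection. Nothing in the sources shows how far the spiders of a group differed in origin within it, and 2 or 3 libraries a group limit every comparison.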

Additional observations from a re-analysis of the deposited data

Results flagged for a closer look

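In 9 of 82 sets of 5 libraries of one stage, the highest library stood so far from the next that its gap, as a share of the whole range, passed the 95% limit of Dixon's test for 5 values (0.71). For values drawn from a single normal distribution, about 1 in 20 would pass, or 4.1 of the 82. These sets are CPM, which can be skewed, pool both sexes, and include family sums beside the genes they hold. Genes measured in the same libraries are also not independent. The number expected by chance here is therefore not known.

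Among the mature libraries, mature male 2 stood apart in all 4 endoplasmic reticulum chaperones. The share was 0.907 in BiP Gene017231 (590 CPM, next 149 CPM), 0.852 in Grp170 (53.0 CPM, next 31.8 CPM), 0.833 in Grp94 (258 CPM, next 96.7 CPM) and 0.778 in BiP Gene003128 (111 CPM, next 64.2 CPM). Mature female 2 stood apart in CCT1 with a share of 0.742 (124 CPM, next 99.6 CPM).

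Among the immature libraries, immature male 1 stood apart in the small heat shock protein genes Gene023682 with a share of 0.825 (6.32 CPM, next 1.17 CPM) and Gene001856 with a share of 0.720 (11.3 CPM, next 3.39 CPM). Immature female 2 stood apart in MKKS Gene006886 with a share of 0.748 (24.1 CPM, next 12.0 CPM). Immature female 3 stood apart in the CG14207-like Gene017252 with a share of 0.711 (890.2 CPM, next 397 CPM).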

How the results depend on the processing

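The number of members called by the quasi-likelihood test in the comparison of stages over both sexes was 0 with all libraries, 4 by DESeq2 and 0 to 3 with each library left out in turn, where a lone library of a group was assumed to vary like the other groups. In the other 6 comparisons it was 0 under each alternative run. With the replicate number as a block, 0 members were called in each of the 7 comparisons. The correlation of deviations from the group means ran from -0.36 to 0.30 in 13 pairs of libraries with the same number. It ran from -0.18 to 0.36 in 24 pairs with other numbers. In the immature females and in the mature males the deviations are mirror images, so values involving these groups recur with the opposite sign. The labels do not say what the number stands for. These correlations therefore cannot show whether libraries with the same number share more than that number. No separate fit of the groups compared exists for the comparisons over both sexes, over both stages or of the interaction, which use all groups.

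With immature female 2 and immature males 1 and 3 left out together, added after the data were seen, the median log2 fold change between stages in males was 0.22 for HSP70, 0.84 for HSP90, 0.30 for HSP20 and -0.17 for Cpn60_TCP1 genes, and over both sexes 0.43 for HSP90 and -0.20 for Cpn60_TCP1 genes. The sign between stages over both sexes turned in CCT4 (0.11), Hsp60 (0.13), Hsp83 (0.43), BiP Gene003128 (0.61), Grp94 (0.98) and Gene017252 (-0.0043), and that of TRAP1 between sexes over both stages (-0.094). The libraries left out were among the highest in each of these genes, or the lowest in Gene017252. The direction of these shifts between stages was therefore built into the choice. Grp94 also turned between stages without immature female 2, over a range with each library left out from -1.23 to 0.11. Among members that overlap no other gene, the HSP90 median between stages in females was -1.40, as only Grp94 was left. With plain library totals the mature male sum was 1144 CPM for HSP20 and 1280.2 CPM for Cpn60_TCP1 genes. The cause of these shifts was not tested. The other family medians moved by less than the spread between libraries, some of them across 0, such as HSP70 between stages over both sexes (0.09 without those 3 libraries) and in females (0.01 without immature female 2). The other fold changes of named genes kept their direction, and kept their side of the threshold except CCT1, CCT3, CCT5, CCT7, Hsc70-4 and GrpE, which passed it under DESeq2, without immature male 2, or both. Counting error limits the scarce genes, and 2 or 3 libraries a group limit the rest.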
